A study of Mus musculus with 24 samples.

Results

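The complement and acute phase genes are 36 genes that encode proteins of the complement cascade, plasma proteins whose level shifts during inflammation, and a few cytokines and feedback genes that drive that response. They were followed in 24 mammary tumors of mice. Members were the non-control probes of the array whose gene name is 1 of these 36 symbols, which gave 44 probes. In all, 35 of the genes passed the filter on low signals and were tested, among 20942 genes of the array. A2m, which encodes a broad inhibitor of proteinases, did not pass: its tumor signal stood well above background on 1 early and 4 late arrays.

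Each tumor came from a female BALB/c mouse given the carcinogen DMBA (7,12-dimethylbenz[a]anthracene), an agent that every group shared, so no untreated tissue was compared. The mice ate a diet high in fat (HFD) or one low in fat (LFD) throughout, or were moved in adulthood from the first to the second (HFD-LFD) or from the second to the first (LFD-HFD), and tumors were labelled by early or late onset. The 6 groups were late LFD (5 tumors), late HFD (6), late LFD-HFD (4), late HFD-LFD (3), early HFD (3) and early HFD-LFD (3), which makes 6 early and 18 late tumors. The 2-color arrays set each tumor against Universal Mouse Reference RNA, a pool from cell lines. There was no early tumor on LFD or LFD-HFD, and the labels do not say that each tumor came from another mouse, so p-values measure the spread between these tumors.

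Complement is a chain of blood proteins that cut and activate one another. The C1 complex starts its classical pathway. The enzymes that cleave C3 contain C2 and C4 or factor B, and small fragments of C3 and C5 call in white blood cells through their receptors. Acute phase proteins are made chiefly by the liver under interleukin 6 and interleukin 1, through the transcription factors Stat3, C/EBP and NF-kB, while mammary epithelium and tissue macrophages make several of them as well, among them C3, haptoglobin, lipocalin 2 and serum amyloid A3.

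The promoters of C3, of the serum amyloid A genes and of Fga are shown as examples, while none was at hand for C2, C4b or Cfb. Each is the stretch of 250 bases before the gene's start, from RefSeq sequence of build GRCm38.p6, in which 26 of the 36 members had a match. Capitals mark matches, on either strand, to TTNNGCAA (a C/EBP motif) or TTCNNNGAA (a Stat motif), and a match is only a run of letters.
C3 (chr17:57228137-57228386, strand minus): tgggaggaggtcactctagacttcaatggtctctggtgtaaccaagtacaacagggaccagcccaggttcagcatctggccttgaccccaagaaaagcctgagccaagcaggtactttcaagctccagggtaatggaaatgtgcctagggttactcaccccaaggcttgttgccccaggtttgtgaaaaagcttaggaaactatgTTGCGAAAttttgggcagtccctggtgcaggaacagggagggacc
Saa1 (chr7:46742981-46743230, strand minus): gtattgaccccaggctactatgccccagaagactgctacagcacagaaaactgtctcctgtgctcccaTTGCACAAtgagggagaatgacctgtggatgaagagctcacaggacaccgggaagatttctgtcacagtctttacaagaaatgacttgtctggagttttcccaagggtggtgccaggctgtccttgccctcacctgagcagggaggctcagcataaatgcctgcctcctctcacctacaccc
Saa2 (chr7:46751583-46751832, strand plus): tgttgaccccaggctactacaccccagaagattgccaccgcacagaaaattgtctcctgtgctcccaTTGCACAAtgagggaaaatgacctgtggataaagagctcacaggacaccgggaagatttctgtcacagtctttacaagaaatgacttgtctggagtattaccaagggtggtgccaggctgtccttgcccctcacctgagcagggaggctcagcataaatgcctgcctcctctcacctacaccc
Saa3 (chr7:46715677-46715926, strand minus): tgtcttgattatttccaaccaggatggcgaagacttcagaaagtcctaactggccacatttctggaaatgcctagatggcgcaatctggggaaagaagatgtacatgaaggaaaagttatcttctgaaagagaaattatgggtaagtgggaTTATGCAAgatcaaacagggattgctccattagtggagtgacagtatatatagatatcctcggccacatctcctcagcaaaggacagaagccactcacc
Fga (chr3:83025903-83026152, strand plus): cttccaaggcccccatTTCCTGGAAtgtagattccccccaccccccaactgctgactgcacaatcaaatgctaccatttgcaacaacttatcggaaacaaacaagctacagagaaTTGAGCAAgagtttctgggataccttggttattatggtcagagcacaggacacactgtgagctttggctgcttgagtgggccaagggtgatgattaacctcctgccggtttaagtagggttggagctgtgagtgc
Fga holds 1 match to each motif, the Stat match 234 and the C/EBP match 135 bases before the start, and the other promoters shown hold 1 C/EBP match each. The C/EBP match of C3 begins 45 bases before the gene's start, and those of Saa1, Saa2 and Saa3 begin 182, 183 and 99 bases before theirs. Saa1 and Saa2 are near copies: 238 of 251 aligned positions of their promoters were identical (94.8%), against 132 of 263 (50.2%) between Saa1 and Saa3. The shares that follow were counted over 300 bases, the 250 before and the 50 after each start, so that some matches lie past the stretch defined above. Of the 26 members with a promoter, 14 (53.8%) held the C/EBP letters, against 12.2% of 27025 genes, and 7 (26.9%) held the Stat letters, against 9.55%. A match to an NF-kB motif, searched in the same way, was found in 4 members (15.4%), C3ar1, Il6, Serpina3g and Serpina3n, against 1.89% of genes. A gene was counted if any of its promoters, 32851 in all, held the letters, and no test was run on these shares.

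Values are log2 ratios of tumor over reference, so that 0 means equal signal in tumor and cell-line pool and 1 means a doubled signal. The labels place the tumor in Cy5 and the reference in Cy3, while the study's methods place the reference in cyanine 5, and the labels' direction was used because the data bear it out. Over 29415 spots the median SD between arrays was 0.481 in Cy5 and 0.186 in Cy3, and 2 Y-chromosome probes were well above background in Cy3 on all 24 arrays and on 0 arrays in Cy5, although the mice were female. With the dyes the other way round, every sign below would turn. Between 66.1% and 89.2% of probes stood well above background in the tumor channel. On 7 arrays of 2 slides, the Cy5 signal was dimmed over 18.3% to 24.5% of the spots, and these spots were set missing; of the 840 member values 88 were missing, 59 of them for this reason. Early HFD lay alone on 1 slide, and early HFD-LFD shared its slide with 1 late LFD-HFD tumor. The arrays were scanned in 3 sessions, with 3 early and 8 late tumors in session 1, 3 of each in session 2 and 7 late ones in session 3.

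Early tumors had lower ratios than late tumors for 8 of the 35 genes at an adjusted p under 0.05 (limma, Benjamini-Hochberg over all genes), and no member passed in the other direction. These were the complement components C2, C3, C4b and factor B (Cfb), the regulator Cfi, and the plasma proteins Hpx, Fga and Serpina1a. The 22.9% of members called stands beside 16.7% of all 20937 genes with a value, of which 10.2% were lower in early tumors and 6.51% higher. The median difference of the members was -0.53, against -0.05 for all genes, and 24 of the 35 (68.6%) lay below 0, against 56.7% of genes. At an unadjusted p under 0.05 there were 14 members, and 32.7% of all genes. In no member did the early and late values separate without overlap, as they did for 0.562% of genes with early lower and 0.346% with early higher. The array measures tissue RNA, in which fewer cells of a type and less RNA per cell cannot be told apart.

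**Figure D1:**
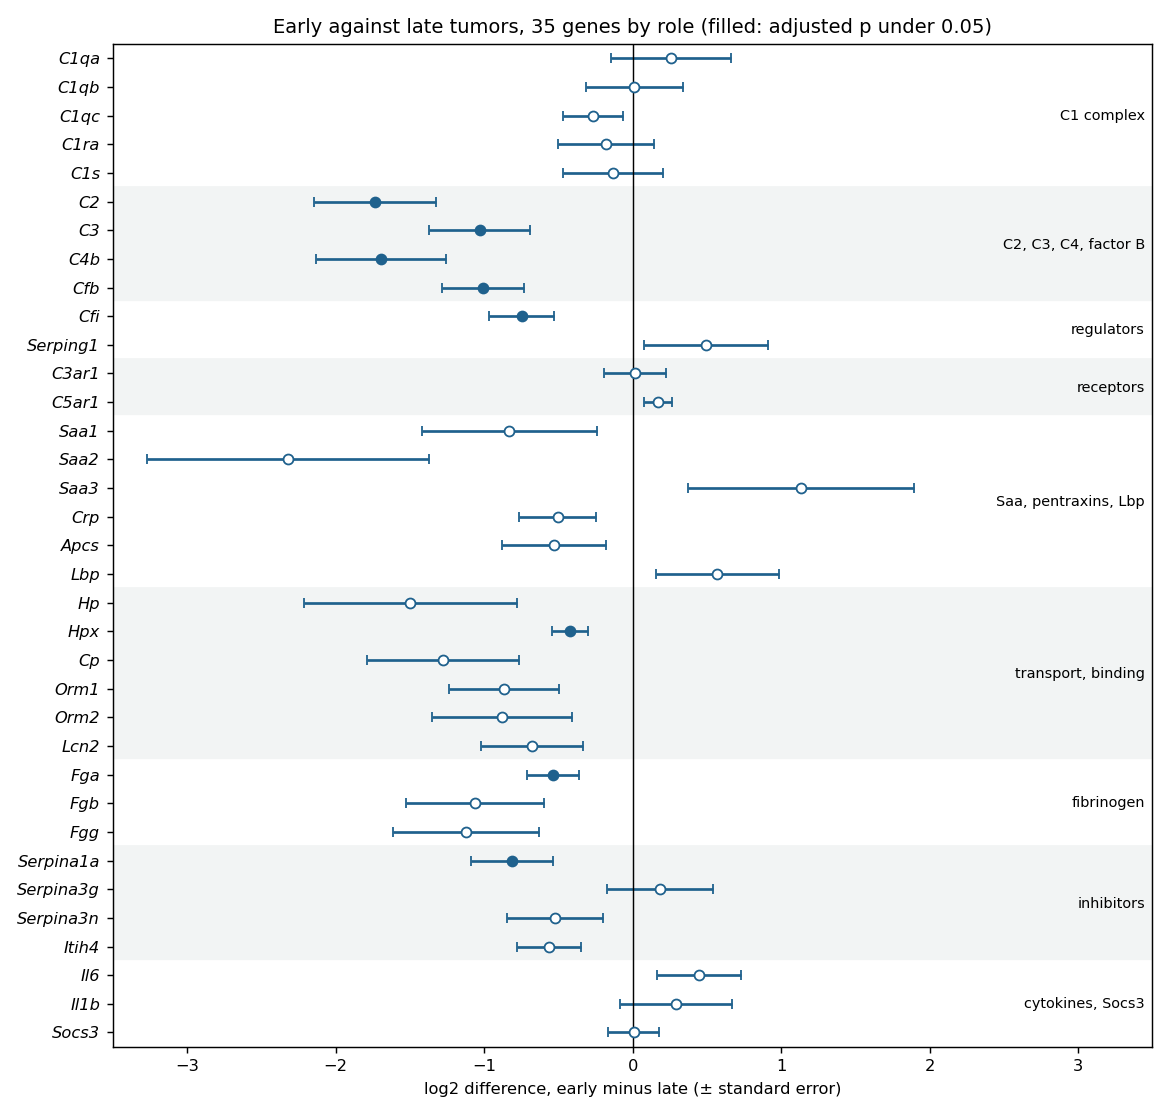
Difference between early and late tumors (log2 ratio, early minus late, with standard error) for the 35 tested genes, grouped by role; filled points passed an adjusted p of 0.05. The 4 genes of the C2, C3, C4 and factor B group are all filled and lie between -1.73 and -1.01, while the 5 C1 genes lie between -0.26 and 0.26 and are open.

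The genes of the starter complex were not called. C1q, the part that recognises antibody and dying cells, is built from the chains C1qa, C1qb and C1qc, and C1ra and C1s are its proteases. The 5 genes had differences of 0.26 ± 0.41 (SE) for C1qa, 0.01 ± 0.33 for C1qb, -0.26 ± 0.20 for C1qc, -0.18 ± 0.32 for C1ra and -0.13 ± 0.34 for C1s. C1qa was at 0.97, 1.06 and 2.28 in the early HFD tumors and at 0.91, 0.70 and 0.75 in the early HFD-LFD tumors, and ran from -1.20 through a median of 1.06 to 2.41 in late tumors. C1qc was at 0.08, 0.34 and 1.37 and at 0.45, 0.25 and 0.40 in the same early groups, and at 0.22, 0.63 and 1.56 (lowest, median, highest) in late tumors. Early values thus lay inside the late range for C1qa, and 5 of 6 lay below the late median for both genes. The adjusted p was 0.69 for C1qa and 0.371 for C1qc (limma).

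C2, the protease of the classical C3-cleaving enzyme, had the largest called difference. It was at -3.09, -2.45 and -1.21 in the early HFD tumors and at -1.90, -2.01 and -2.17 in the early HFD-LFD tumors. Late tumors, 14 with a value, ran from -1.94 through a median of -0.15 to 0.92. Among late tumors, 3 of the 4 measured on LFD (-1.94, -1.86 and -1.58) and 1 on LFD-HFD (-1.56) reached into the early range, and all 6 early tumors were below the late median. Early tumors averaged -2.14 ± 0.62 (SD, n = 6) and late tumors -0.41 ± 0.98 (SD, n = 14), a 3.32-fold lower ratio (difference -1.73 ± 0.41 SE, adjusted p = 0.00867, limma). Within session 1 the difference in C2 was -1.80 (adjusted p = 0.116) and within session 2 it was -2.06 (adjusted p = 0.0315). With slide as a random block C2 stayed called (adjusted p = 0.0211). With slide as a fixed block neither C2 nor any other member was called, and early tumors shared a slide with only 1 late tumor.

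C4b, which pairs with C2 in that enzyme, was at -0.11, -1.13 and -1.08 in early HFD and at -1.06, -0.02 and -0.39 in early HFD-LFD tumors. In 17 late tumors it ran from -1.43 through 1.14 to 2.94, and 2 late HFD tumors, at -0.58 and -1.43, were the only late values below 0. The means were -0.63 ± 0.52 (SD, n = 6) and 1.06 ± 1.08 (SD, n = 17), 3.23-fold apart (difference -1.69 ± 0.44 SE, adjusted p = 0.0124, limma). Here too the sign was the same within session 1 (-1.83, adjusted p = 0.0857) and session 2 (-2.31, adjusted p = 0.0161). The call for C4b held with slide as a random block (adjusted p = 0.0427) but not as a fixed block. Mice also carry C4a, a close copy, and whether the C4b probe also binds its transcript was not tested.

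Cfb, the protease of the alternative pathway, was at -2.71, -2.32 and -1.26 in early HFD and at -2.10, -2.40 and -2.45 in early HFD-LFD tumors. Late tumors ran from -2.21 through -1.28 to 0.42, so that 1 early HFD tumor, at -1.26, was above the late median and the other 5 were below it. The difference was -1.01 ± 0.28 (SE, adjusted p = 0.0164, limma), a 2.01-fold lower ratio. Within sessions 1 and 2 it was -1.29 and -1.02 (adjusted p = 0.0957 and 0.058), and slide as a random block ended the call for Cfb (adjusted p = 0.0741).

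C3, the protein on which all pathways meet, was at -4.64, -3.53 and -2.72 in early HFD and at -3.46, -3.11 and -3.64 in early HFD-LFD tumors. Late tumors ran from -3.96 through -2.50 to -1.24, and all 6 early tumors were below the late median. The difference was -1.03 ± 0.34 (SE, adjusted p = 0.039, limma), a 2.04-fold lower ratio, and a second C3 probe gave -0.99. Within session 1 it was -1.26 (adjusted p = 0.12) and within session 2 -1.65 (adjusted p = 0.00653). The call for C3 was lost with slide as a random block (adjusted p = 0.0665) and without any of 8 arrays, with adjusted p up to 0.126 without early HFD tumor 1.

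**Figure D2:**
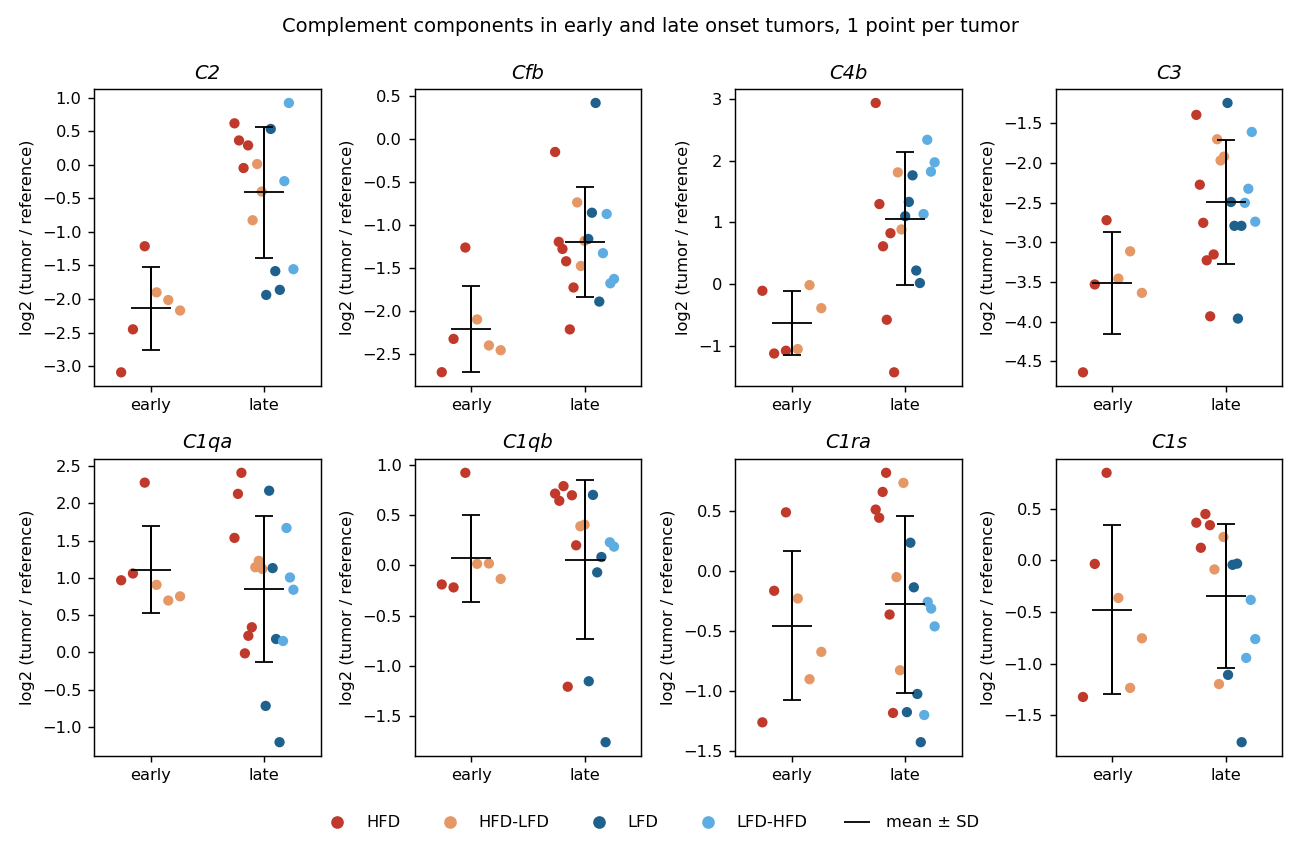
Log2 ratio of tumor over reference in each tumor for C2, Cfb, C4b and C3 (top) and for C1qa, C1qb, C1ra and C1s (bottom), by onset, with diets in color and bars for mean ± SD. In the top row the early means lie 1.01 to 1.73 below the late means, and in the bottom row the early and late points cover much the same range.

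C2, Cfb and C4b are neighbors on the chromosome. Their probes lie within 134 kb of chr17:34865328-34999634 (mm9), and those of C2 and Cfb within 6.13 kb, while the C3 probes lie apart on the same chromosome, at chr17:57343416-57343737. All of these probes sit on the minus strand. Leaving out any 1 of the 24 arrays did not end the call of C2, C4b or Cfb.

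Of the regulators, Cfi encodes the protease that destroys active C3 and C4 fragments and Serping1 encodes the C1 inhibitor. Cfi was at -6.05, -6.98 and -7.02 in early HFD tumors and at -5.34 and -5.58 in the 2 early HFD-LFD tumors with a value, against -5.98, -5.48 and -4.77 (lowest, median, highest) in late tumors. The early HFD tumors lay below every late value and the early HFD-LFD tumors inside the late range. The difference was -0.75 ± 0.22 (SE, adjusted p = 0.0235, limma), -1.16 within session 1 (adjusted p = 0.0211) and -0.05 within session 2 (adjusted p = 0.853), and the call for Cfi was lost with slide as a random block (adjusted p = 0.0949), without early HFD tumor 2 (0.115) or without early HFD tumor 3 (0.108). Serping1 was at -1.93, -0.31 and 0.14 and at -0.45, -1.03 and -0.74 in the early groups, against -2.73, -0.75 and 0.23 in late tumors (difference 0.49 ± 0.42 SE, adjusted p = 0.427).

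The receptors for the C3 and C5 fragments, which sit on white blood cells, were not called. C3ar1 was at 0.31, 0.53 and 1.72 in early HFD, at 0.54, 0.37 and 0.75 in early HFD-LFD, and at 0.12, 0.77 and 1.58 (lowest, median, highest) in late tumors, a difference of 0.02 ± 0.21 (SE, adjusted p = 0.964, limma). C5ar1, a dim probe, was at 0.07, 0.02 and -0.23, at -0.24, -0.05 and -0.16, and at -0.72, -0.26 and 0.05 in the same groups, a difference of 0.17 ± 0.10 (SE, adjusted p = 0.212). The levels of a fixed list of macrophage markers overlapped as well: the mean of its 12 tested genes lay between 0.62 and 1.32 in early and between 0.20 and 1.16 in late tumors. Of the 12, 6 lay below 0 in difference and 6 above (median 0.04). In early tumors 2 of them, Msr1 and Lyz2, were called higher and 0 lower, beside 6.51% and 10.2% of all genes.

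Serum amyloid A proteins, small apolipoproteins that bind lipid in inflammation, had the widest ranges of all members, and none was called. Saa2 was at 2.68, -0.53 and -2.02 in early HFD tumors and at 0.18 and 0.78 in early HFD-LFD tumors, against -1.34, 2.54 and 6.32 (lowest, median, highest) in late tumors. The difference in Saa2 was -2.32 ± 0.95 (SE, adjusted p = 0.0927, limma), the largest of all members in size, and 4 of 5 early tumors were below the late median. Saa1 differed by -0.83 ± 0.59 (adjusted p = 0.341). Saa3, the form made outside the liver, had a difference above 0: 5 early tumors lay between 2.98 and 3.71 and early HFD tumor 1 at 0.70, against -0.54, 1.91 and 4.77 in late tumors (difference 1.13 ± 0.76 SE, adjusted p = 0.312). The 3 probes lie within 39.3 kb of chromosome 7, and those of Saa1 and Saa2 share 18 of 52 aligned bases. Whether either of these probes also binds the other gene's transcript was not tested.

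**Figure D3:**
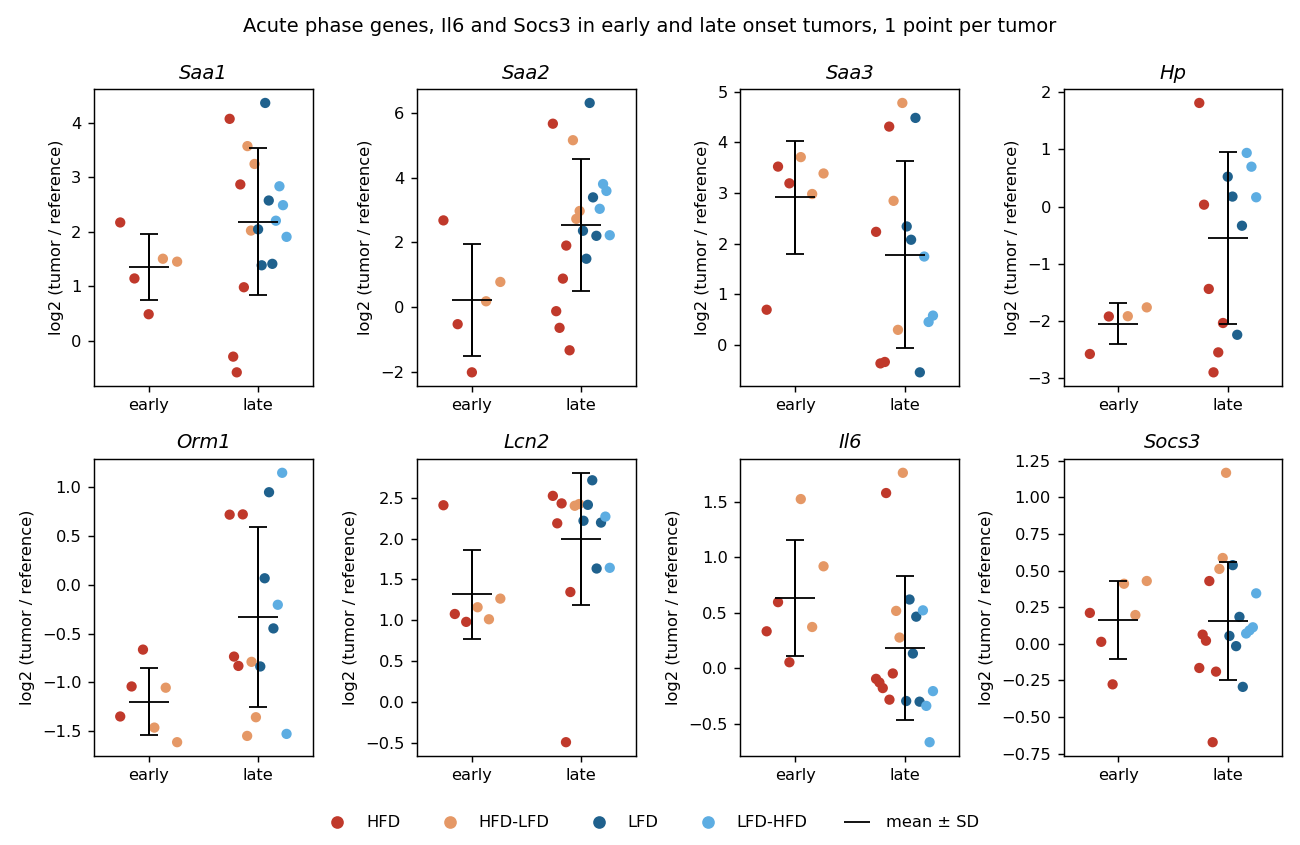
Log2 ratio of tumor over reference in each tumor for Saa1, Saa2, Saa3, Hp, Orm1, Lcn2, Il6 and Socs3, by onset, with diets in color and bars for mean ± SD. Saa2 spans -2.02 to 6.32 over the tumors, and in Saa3 and Lcn2 early HFD tumor 1 (0.70 and 2.41) lies away from the other 5 early tumors.

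The pentraxins Crp and Apcs bind phosphocholine and cell debris, and Apcs is the form that responds most in mice. Both were dim in tumors, and their probes lie within 196 kb of chromosome 1. Between early and late tumors Crp differed by -0.50 ± 0.26 (SE, adjusted p = 0.182, limma) and Apcs by -0.53 ± 0.35 (SE, adjusted p = 0.3). Crp was at -3.56, -3.14 and -3.56 in early HFD, at -3.87, -3.91 and -4.15 in early HFD-LFD, and at -4.18, -3.18 and -2.24 (lowest, median, highest) in late tumors. Lbp, which carries bacterial lipopolysaccharide to its receptor, differed by 0.57 ± 0.41 (SE, adjusted p = 0.348): early tumors lay between 0.20 and 0.92 and late tumors between -1.56 and 1.95.

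The transport and binding proteins all had differences below 0, with 1 of 6 called. Hpx, which binds free heme, was at -6.23, -6.13 and -6.12 in early HFD, at -5.75, -5.68 and -6.03 in early HFD-LFD, and at -6.02, -5.61 and -5.17 (lowest, median, highest) in late tumors. All 6 early tumors were below the late median, and the ranges overlapped. The difference in Hpx was -0.42 ± 0.12 (SE, adjusted p = 0.0224, limma), -0.55 within session 1 (adjusted p = 0.0628) and -0.18 within session 2 (adjusted p = 0.42). It turned in sign with dimmed rows kept (0.15), median centring (0.093) or the tumor channel alone (0.12), and the call for Hpx was lost with slide as a random block (adjusted p = 0.129) and without any 1 of the early HFD tumors (0.0562 to 0.0629). Cp, the copper-carrying ferroxidase ceruloplasmin, was at 0.47, 0.32 and 0.85 and at -0.24, -0.54 and -0.77 in the early groups, against -1.87, 1.5 and 2.92 in late tumors. All 6 early Cp values were below the late median (difference -1.28 ± 0.51 SE, adjusted p = 0.0902), but a second, dimmer Cp probe gave 0.14.

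The remaining 4 were not called. Hp (haptoglobin, which binds hemoglobin) differed by -1.50 ± 0.72 (SE, adjusted p = 0.157, limma), with 4 early values between -2.58 and -1.76 and 13 late values between -2.90 and 1.81. The scanner software had flagged the local background of the Hp spot on all 3 late HFD-LFD arrays, where it was left out, and with such spots kept Hp was called. Orm1 and Orm2, plasma glycoproteins that bind drugs and lipids, differed by -0.86 ± 0.37 and -0.88 ± 0.47 (adjusted p = 0.11 and 0.194). Lcn2, which binds iron-carrying siderophores, was between 0.98 and 1.27 in 5 early tumors and at 2.41 in early HFD tumor 1, with a late median of 2.24 (difference -0.68 ± 0.35 SE, adjusted p = 0.176).

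Fibrinogen, the precursor of the fibrin clot, is built from the chains Fga, Fgb and Fgg, whose probes lie within 27.6 kb of chromosome 3. All 3 chains were below 0 in difference and Fga was called. Fga was at -5.82, -5.89 and -6.74 in early HFD, at -5.27 and -5.56 in early HFD-LFD, and at -5.85, -5.28 and -5.01 (lowest, median, highest) in late tumors. Of the early HFD values 2 lay below every late value and the third just above the lowest, and the early HFD-LFD values lay among the late ones. The difference in Fga was -0.53 ± 0.18 (SE, adjusted p = 0.0419, limma), -0.86 within session 1 (adjusted p = 0.0387) and -0.22 within session 2 (adjusted p = 0.368), a second Fga probe gave -0.54, and the call was lost with slide as a random block (adjusted p = 0.141) and without any 1 of 13 arrays (highest adjusted p 0.189, without early HFD tumor 3). Fgb was at -5.93, -5.89 and -5.53 in early HFD and at -4.99 in the 1 early HFD-LFD tumor with a value, against -5.86, -4.63 and -2.36 in late tumors (difference -1.06 ± 0.46 SE, adjusted p = 0.121), and Fgg differed by -1.12 ± 0.49 (SE, adjusted p = 0.122).

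Among the proteinase inhibitors, Serpina1a (an alpha-1 antitrypsin that blocks neutrophil elastase) was called. It was at -6.76 and -6.84 in 2 early HFD tumors and at -4.99 and -5.05 in 2 early HFD-LFD tumors, against -5.80, -5.06 and -4.55 (lowest, median, highest) in 18 late tumors. The early HFD values lay below every late value, and the early HFD-LFD values lay near the late median. The difference in Serpina1a was -0.81 ± 0.28 (SE, adjusted p = 0.0465, limma), -1.52 within session 1 (adjusted p = 0.012) and -0.44 within session 2 (adjusted p = 0.0741). The call was lost with slide as a random block (adjusted p = 0.0576) and without any 1 of 15 arrays, with adjusted p = 0.233 without early HFD tumor 1 and 0.264 without early HFD tumor 2. A second Serpina1a probe gave a smaller difference, -0.46, and with the mean of both probes Serpina1a was not called (-0.59, adjusted p = 0.102). Mice carry several near copies of Serpina1a, which the probe may also bind.

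Itih4, a liver protein released in inflammation, was at -6.72, -6.79 and -6.69 in early HFD and at -6.18, -5.24 and -6.13 in early HFD-LFD tumors. Late tumors ran from -6.32 through -5.81 to -5.02, above every early HFD value, and the difference in Itih4 was -0.56 ± 0.21 (SE, adjusted p = 0.0727, limma), while a second Itih4 probe gave -0.25. Serpina3n and Serpina3g, which block proteases of white blood cells, differed by -0.52 ± 0.32 and 0.18 ± 0.36 (SE, adjusted p = 0.263 and 0.749).

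The inducers of the response were not called, and their differences lay at or above 0. Il6 was at 0.33, 0.59 and 0.05 in early HFD and at 1.52, 0.37 and 0.92 in early HFD-LFD tumors, against -0.67, -0.07 and 1.76 (lowest, median, highest) in late tumors, and all 6 early values of Il6 were above the late median (difference 0.45 ± 0.28 SE, adjusted p = 0.272, limma). The Il6 spot was well above background on all 6 early but only 12 of 18 late arrays. Il1b was at 1.93, 3.05 and 2.61 and at 3.67, 3.51 and 3.55 in the early groups, against 1.06, 2.62 and 4.78 in late tumors (difference 0.29 ± 0.38 SE, adjusted p = 0.617). Socs3, which Stat3 induces and which brakes interleukin 6 signaling, differed by 0.01 ± 0.17 (SE, adjusted p = 0.984).

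Scaling bears on these counts. Centring each array on its median in place of loess moved the median difference of all genes from -0.05 to 0.22 and the share of calls that were lower in early tumors from 61.1% to 17.4%, and C2, C4b and Cfb were the 3 members that stayed called. In the tumor channel alone 38.8% of calls were lower, and C2 and C4b stayed called. Marker lists of other cells were counted in the comparison of early and late tumors, in which 10.2% of all genes were called lower, 6.51% higher and 56.7% lay below 0. All 10 tested hepatocyte markers were below 0 in difference and 4 were called lower, with a mean level of -5.85 to -5.04 in early and -5.34 to -4.49 in late tumors. These are far below the reference, as are Cfi, Hpx, Fga, Fgb, Fgg, Serpina1a and Itih4, and albumin, a defining liver product, lay between -4.69 and -3.13. Of 9 luminal epithelial markers 3 (Gata3, Prlr and Foxa1) were called lower in early tumors (mean level -0.02 to 2.42 in early, -1.52 to 3.59 in late tumors), and the 9 squamous markers were all above 0 with 0 called (-3.54 to -0.10, and -4.88 to 3.08). Adipocyte (8 of 8), endothelial (7 of 7) and T cell markers (6 of 7) lay below 0 as well, with 1, 1 and 0 called lower. The basal, fibroblast and neutrophil lists had 1 gene called lower each. The part of these marker lists in the differences of the members was not tested. The epithelial genes Krt8 and Krt14 were well above background on every array with a value. The liver genes Apoa1 and Alb were so too, so this measure does not bear on the label of mammary tumor.

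Within HFD, 6 of 35 members were called between the 3 early and the 6 late tumors, all lower in early tumors: C2, Cfi, Fga, Crp, Serpina1a and Itih4 (17.1%, beside 12.1% of genes, 6.75% lower and 5.33% higher). At an unadjusted p under 0.05 there were 8 members, and 29.3% of genes, and 26 of the 35 differences lay below 0 (74.3%, against 58.1%). The median difference of the members was -0.49, against -0.09 for all genes. Serpina1a had a value in 2 of the 3 early tumors, and C2, Crp and Itih4 in 4 of the 6 late ones. Serpina1a fell by 1.68 ± 0.17 (SE, adjusted p = 0.000239, limma) and Cfi by 1.18 ± 0.22 (adjusted p = 0.00334), and both calls held with slide as a random block (adjusted p = 0.00102 and 0.0203). C2 differed by -2.56 ± 0.59 (adjusted p = 0.0126), with late HFD values of 0.62, 0.36, -0.05 and 0.29 that all lay above the 3 early ones. Fga differed by -0.74 ± 0.22 (adjusted p = 0.0375) and Itih4 by -0.93 ± 0.25 (adjusted p = 0.0238). Slide as a random block ended the calls of C2, Fga and Itih4 here (adjusted p = 0.0609, 0.132 and 0.0972), and the mean of both probes ended that of Itih4 (0.105). The early HFD tumors were alone on their slide, so that slide and group cannot be told apart.

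Crp within HFD differed by -0.81 ± 0.23 on the measured values (SE, adjusted p = 0.0339, limma). Its tumor signal was not well above background on any of the 3 early HFD arrays and was so on 2 of the 4 late HFD arrays with a value. With values of both groups at background, no fold is given for Crp. The call for Crp was lost with dimmed rows kept (adjusted p = 0.662), the tumor channel alone (0.889) or slide as a random block (0.122), among others.

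Within HFD-LFD, which shares no tumors with the HFD comparison, 0 of 34 members were called, beside 0.8% of genes (0.299% lower and 0.501% higher), and 6 members and 14.9% of genes had an unadjusted p under 0.05. The smallest adjusted p was 0.19, and 30 of the 34 differences were below 0 (88.2%, against 55.9% of genes). C2 differed by -1.62 ± 0.63 (SE, adjusted p = 0.239, limma), C3 by -1.54 ± 0.59 (0.22), C4b by -1.84 ± 0.83 (0.309) and Cfb by -1.18 ± 0.49 (0.265). In the same contrast Cfi differed by -0.27 ± 0.28 and Serpina1a by -0.27 ± 0.19 (adjusted p = 0.687 and 0.542). Cfi and Serpina1a had 2 early values each here, and C4b had 2 late values. Within session 2 alone, 5 members were called in this comparison, C2, C3, Cp, Fgg and Lcn2, and Fgg was the 1 called with session as a fixed block. The 3 early tumors of session 2 in this comparison lay on the same slide and the 2 late ones on another. Slide and onset thus cannot be told apart there, and the share of all genes called in that fit is not given.

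Whether onset acted differently in the 2 diets was tested as an interaction, and 0 of 34 members were called, beside 0.00964% of genes, with 2 members and 8.01% of genes at an unadjusted p under 0.05, and 14 of the 34 members lay below 0 (41.2%, against 53.5%). The 2 members were Serpina1a, with a difference between the changes of -1.41 ± 0.26 (SE, unadjusted p = 3.61e-05, adjusted p = 0.125, limma), and Cfi, with -0.91 ± 0.35 (unadjusted p = 0.0193, adjusted p = 0.588). For C2, C3, C4b and Cfb the differences between the changes were -0.93 ± 0.86, 0.70 ± 0.78, 0.45 ± 1.06 and 0.42 ± 0.66.

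**Figure D4:**
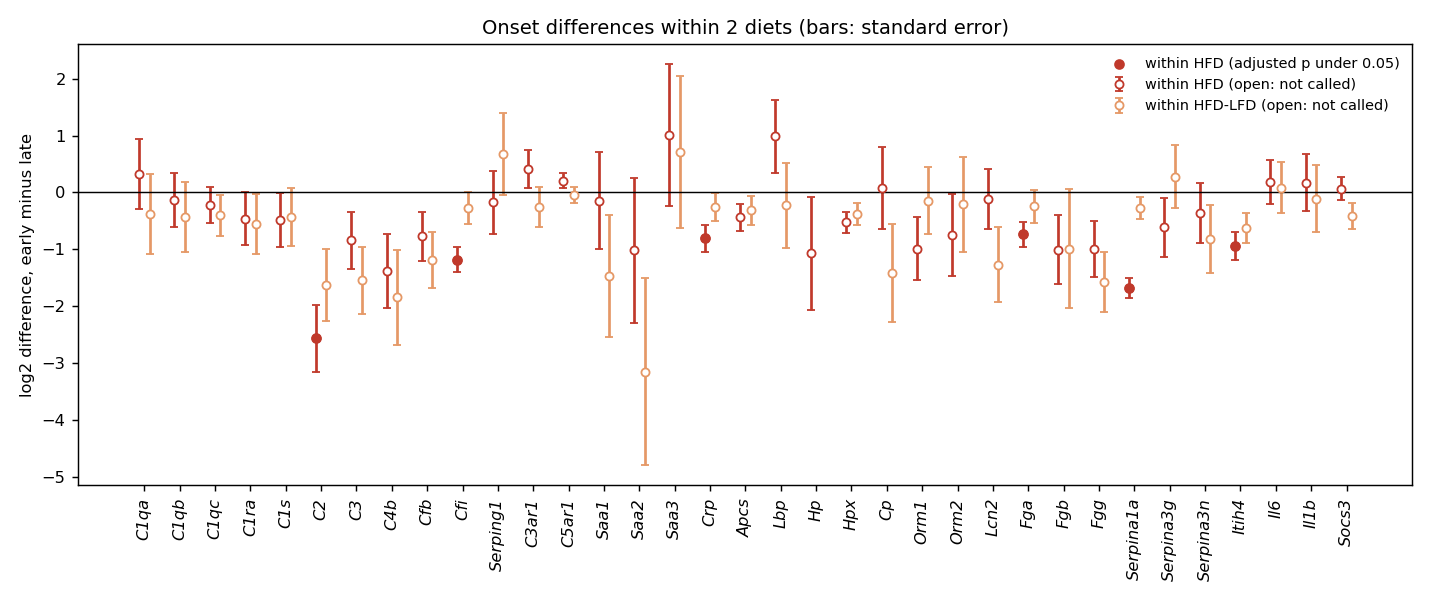
Difference between early and late tumors (log2 ratio, early minus late, with standard error) within HFD and within HFD-LFD for the tested genes; filled points passed an adjusted p of 0.05. The 6 filled points are all within HFD, and C2, C3, C4b and Cfb lie below 0 in both diets (-2.56 to -0.77 and -1.84 to -1.18).

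Continuous HFD and continuous LFD were compared over 14 tumors. With limma, 0 of 35 members and 0% of genes were called, 3 members and 4.8% of genes had an unadjusted p under 0.05, and the smallest adjusted p of a member was 0.958. These 3 were Serping1, with a difference (HFD minus LFD) of 1.03 ± 0.42 (SE, unadjusted p = 0.0283), Cp, with -1.48 ± 0.63 (0.0386), and Fgg, with -1.18 ± 0.43 (0.0206). The HFD arm held 3 early tumors and the LFD arm none.

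Among the 18 late tumors, the 4 diets differed for 3 of 34 members in a moderated F test of limma, beside 1.7% of genes, with 5 members and 19.5% of genes at an unadjusted p under 0.05. The 3 were Apcs (F = 22.8, adjusted p = 0.0082), Crp (F = 13.8, adjusted p = 0.0225) and Serpina1a (F = 11.7, adjusted p = 0.0256). Apcs was at -2.83, -3.78, -3.38 and -2.65 on LFD and at -3.64, -3.61, -3.12 and -2.90 on HFD, against -4.40, -4.66 and -4.74 on LFD-HFD and -4.72, -4.84 and -4.42 on HFD-LFD. The measured Apcs ratios of switched mice lay below those of mice kept on 1 diet, but the Apcs spot was well above background on only 1 of the 4 late HFD arrays, so that the order against late HFD is uncertain. Crp, well above background on 1 of 4 late LFD and 2 of 4 late HFD arrays, had the same order of measured ratios, from -3.31 to -2.24 on LFD and HFD and from -4.18 to -3.57 on the switched diets. All 8 measured late tumors on an unswitched diet had been scanned in session 1, and all 6 on switched diets in session 2 or 3. The early tumors split the same way, with Apcs from -3.86 to -3.60 in session 1 (early HFD) and from -5.08 to -4.82 in session 2 (early HFD-LFD). Diet switch and scan session therefore cannot be told apart in Apcs and Crp. Slide as a random block ended both calls (adjusted p = 0.0624 and 0.115).

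Serpina1a was lowest among late tumors on LFD, at -5.27, -5.53, -5.80, -5.73 and -5.23, against -5.39 to -4.96 on HFD, -4.96 to -4.55 on LFD-HFD and -5.04 to -4.58 on HFD-LFD. LFD tumors came from sessions 1 and 3, and the call was lost with session as a fixed block (F = 8.07, adjusted p = 0.132), with slide as a random block (adjusted p = 0.0923) and with the mean of both Serpina1a probes (F = 3.37, adjusted p = 0.244). It was also lost without late LFD tumor 2 (adjusted p = 0.0523) or late HFD-LFD tumor 2 (0.0529).

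Pairs of genes were followed across tumors as a further check on how members move together; 15 pairs were computed, with permutation tests of 100000 resamples and Benjamini-Hochberg adjustment over the pairs. Cell content, slide and session are common to both genes of a pair. The closest were Orm1 and Orm2 (Pearson r = 0.96, Spearman rho = 0.866, n = 20, permutation p = 1e-05 for both, the smallest these permutations can give, adjusted 3.75e-05 and 7.5e-05) and C1ra and C1s (r = 0.938, rho = 0.946, n = 20, permutation p = 1e-05 for both, adjusted 3.75e-05 and 7.5e-05). Without the 2 tumors farthest on the x axis r was 0.937 and 0.911. Saa1 and Saa2 followed (r = 0.874, rho = 0.865, n = 21, permutation p = 1e-05 and 2e-05, adjusted 3.75e-05 and 0.0001; r = 0.866 without 2 tumors). The probes of Orm1 and Orm2 share 24 of 56 aligned bases. For this pair and for Saa1 and Saa2, binding of a probe to the other gene's transcript was not tested.

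The C1q chains, which form 1 protein and lie within 15.9 kb of chromosome 4, gave lower coefficients. C1qa and C1qb gave r = 0.812 and rho = 0.709 (n = 21, permutation p = 2e-05 and 0.0005, adjusted 6e-05 and 0.00107), and 0.649 without 2 tumors. C1qc gave r = 0.376 with C1qa (rho = 0.519, n = 24, permutation p = 0.0689 and 0.0102, adjusted 0.0738 and 0.0139; 0.792 without 2 tumors) and 0.186 with C1qb (rho = 0.443, n = 21, permutation p = 0.424 and 0.046, adjusted 0.424 and 0.053; 0.32 without 2 tumors). C1qb and Csf1r, the receptor that keeps macrophages alive, gave r = 0.6 and rho = 0.794 (n = 17, permutation p = 0.0116 and 0.00022, adjusted 0.0159 and 0.00055; 0.713 without 2 tumors).

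C3 and Cfb gave r = 0.664 and rho = 0.733 (n = 23, permutation p = 0.00064 and 0.00017, adjusted 0.00137 and 0.00055; 0.622 without 2 tumors), with r = 0.452 among late tumors and 0.66 in session 1. The fibrinogen chains gave r = 0.621 for Fga and Fgb (rho = 0.697, n = 16, permutation p = 0.0108 and 0.00349, adjusted 0.0159 and 0.00524; 0.642 without 2 tumors), 0.648 for Fga and Fgg (rho = 0.547, n = 16, permutation p = 0.00795 and 0.0305, adjusted 0.0149 and 0.0381) and 0.693 for Fgb and Fgg (rho = 0.824, n = 13, permutation p = 0.0094 and 0.00093, adjusted 0.0157 and 0.00174; 0.715 without 2 tumors). For Fga and Fgg r fell to 0.402 without 2 tumors and to 0.223 among late tumors, and was 0.82 in session 1. The size of this relation thus depended on which tumors were included.

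Il6 and its target Socs3 gave r = 0.688 and rho = 0.601 (n = 24, permutation p = 0.00019 and 0.00261, adjusted 0.000475 and 0.00435; 0.543 without 2 tumors). Il1b and S100a9, a gene of the neutrophil marker list, gave r = 0.796 and rho = 0.73 (n = 22, permutation p = 1e-05 and 0.00022, adjusted 3.75e-05 and 0.00055), and r = 0.781 without 2 tumors. Which cells gave the S100a9 signal was not tested. Saa3 and Lcn2, both made by inflamed epithelium, gave r = -0.528 but rho = -0.37 (n = 18, permutation p = 0.0203 and 0.13, adjusted 0.0254 and 0.139; -0.529 without 2 tumors). In 5 of the 6 early tumors Saa3 was at 2.98 or above and Lcn2 at 1.27 or below, so the points lie partly in separate clusters, and among late tumors r was -0.335. Hp and Lcn2 gave r = 0.509 and rho = 0.376 (n = 14, permutation p = 0.0587 and 0.185, adjusted 0.0677 and 0.185; 0.442 without 2 tumors).

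**Figure D5:**
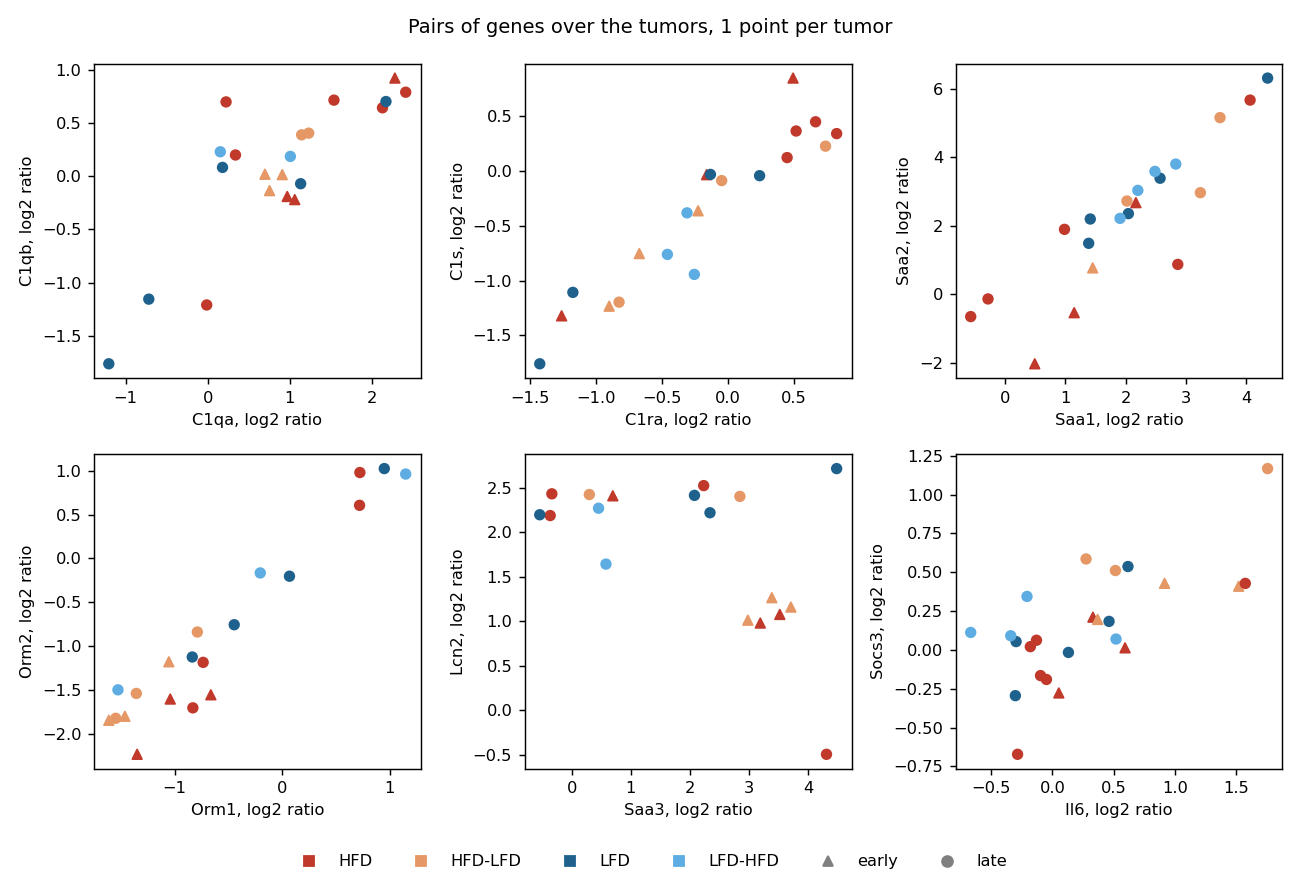
Log2 ratios of pairs of genes, 1 point per tumor, with diets in color and early tumors as triangles. C1ra and C1s, Saa1 and Saa2, and Orm1 and Orm2 rise together (r = 0.938, 0.874 and 0.96), while 5 of the 6 early tumors sit at high Saa3 with low Lcn2.

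Other genes of these pathways, from lists of genes that are not members, were counted in the same fits, in which 10.2% of all genes were lower in early tumors and 6.51% higher (median -0.05). Of 34 tested complement genes, 7 were lower in early tumors and 0 higher, with a median difference of -0.37, led by Cd55 (-1.09 ± 0.21 SE, adjusted p = 0.00225, limma), which breaks up C3-cleaving enzymes on cell surfaces, Cr1l (-0.48 ± 0.10, adjusted p = 0.00354) and C1rl (-0.69 ± 0.15, adjusted p = 0.00496). Of 49 acute phase and plasma protein genes, 9 were lower and 0 higher (median -0.48), led by Vwf, the platelet-binding protein of endothelium (-2.65 ± 0.62, adjusted p = 0.00676), Apob (-0.93 ± 0.22, adjusted p = 0.00783) and Itih5 (-2.03 ± 0.50, adjusted p = 0.00862). Of 43 genes of interleukin 6, interleukin 1 and Stat3 signaling, 6 were lower and 1 higher (median -0.20), led by the receptor chains Il11ra1 (-1.73 ± 0.31, adjusted p = 0.00111), Tlr4 (-0.88 ± 0.20, adjusted p = 0.00644) and Il6ra (-1.44 ± 0.37, adjusted p = 0.0124).

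Within HFD 6.75% of all genes were lower in early tumors and 5.33% higher (median -0.09). The plasma protein list had 24 of 49 genes lower and 0 higher (median -0.75), led by Apoa1 (-1.16 ± 0.17 SE, adjusted p = 0.000855, limma), Hamp (-1.44 ± 0.23, adjusted p = 0.00134) and Apoh (-1.50 ± 0.23, adjusted p = 0.00144). Of 10 hepatocyte markers 6 were lower. Alb, Apoa1, Apob, Ttr, Ahsg and Serpina3k were named in both lists, so this is not a separate count. The complement list had 7 of 34 lower, led by Mbl2 (-1.16 ± 0.20, adjusted p = 0.00241), C8g (-0.90 ± 0.19, adjusted p = 0.00547) and Cr1l (-0.51 ± 0.12, adjusted p = 0.0126), and the signaling list had 4 lower and 1 higher, led by the liver factor Hnf4a (-1.51 ± 0.25, adjusted p = 0.00216), Il11ra1 (-1.74 ± 0.36, adjusted p = 0.00565) and Cish (-1.34 ± 0.37, adjusted p = 0.0238). Within HFD-LFD, where 0.8% of all genes were called, none of these 3 lists had a called gene with limma. At an unadjusted p under 0.05 were 4 of 33 complement, 3 of 48 plasma protein and 9 of 43 signaling genes, beside 14.9% of all genes. For the difference of these changes, where 0.00964% of genes were called, none of the lists had a called gene. At an unadjusted p under 0.05 there were 3 of 33 complement, 14 of 48 plasma protein and 4 of 43 signaling genes. The share of all genes was 8.01%. Early HFD lay alone on its slide, so slide and group cannot be told apart in these counts. Between HFD and LFD, where 0% of genes were called, none of the 3 lists had a called gene. The counts at an unadjusted p under 0.05 were 1 of 34, 2 of 49 and 1 of 43, beside 4.8% of all genes.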

How the data were processed

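RNA of 24 tumors was measured on Agilent 4 x 44K arrays (probe positions on mm9). As deposited by the authors, intensity values are mean spot and median local background signals in each dye from Agilent Feature Extraction, version 11.0.1.1 per the file headers and 8.5.1.1 in the submitters' processing notes, with spot flags. The deposited log10 values are that software's dye-normalized ratios, used as an alternative only. The authors' lowess step, filter and imputation were not in the files.

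The limma package (3.58.1, under R 4.3.3) served for a normexp background correction (offset 50) on unflagged spots, ratios were loess-normalized within arrays, and flagged spots and rows with dimmed Cy5 were left missing. A row band of 10 rows counted as dimmed below -0.5 log2 units, with 1 band on each side. The filter kept the 27281 of 39429 probes whose signal exceeded 10 in each channel on 80% or more of arrays, and the brightest probe stood for a gene. Gene names came from the accession for 27234 probes, from the current symbol for 3576, from a former symbol for 569 and from the file alone for 8050. Onset was compared over 24 arrays, HFD and LFD over 14, and the other comparisons were contrasts of 6 group means, with Benjamini-Hochberg adjustment over all genes and a threshold of 0.05. The scripts were tested on simulated data. Full values are given for members called in any comparison and the 2 with the smallest p in each role. Members, lists and tests were chosen with earlier results of these data known. The precision is limited by the number of arrays. Alternatives covered dimmed rows, background, scaling, filter, probes, imputation, slide, session, weights and each array left out.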

Additional observations from a re-analysis of the deposited data

Results flagged for a closer look

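Of 86 groups of 4 to 6 tumors in which the lowest or highest value of a member was compared with its neighbors by Dixon's ratio, 6 had a tumor far from the others, and chance gives about 1 in 20. On the log2 ratio scale, C1qb was at -1.21 in late HFD tumor 4, against 0.20 to 0.79 in the other 5 late HFD tumors, and Il6 was at 1.58 in the same tumor, against -0.28 to -0.05. C2 was at 0.53 in late LFD tumor 2, against -1.94 to -1.58 in the other 3 measured late LFD tumors, and Serpina3n was at -0.34 in that tumor, against -2.73 to -2.19. C5ar1 was at 0.05 in late LFD tumor 3, against -0.31 to -0.24, and Socs3 was at 0.34 in late LFD-HFD tumor 4, against 0.07 to 0.11.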

How the results depend on the processing

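Alternatives other than leaving out an array gave 971 member values, for all members between early and late tumors and for the members called within HFD or among late tumors. Of these 847 kept their side of the threshold, 32 of them uncalled values that changed sign, 93 lost the call, 28 gained it and 3 were called values that turned. Between early and late tumors 8 members were called. Hpx turned to 0.15 with dimmed rows kept, 0.093 with median centring and 0.12 in the tumor channel alone; the cause was not tested. The count was 5 with the scanner log ratio, 3 with median centring, 2 in the tumor channel alone, 2 with slide as a random block, 0 with slide as a fixed block, 4 within session 1 and 17 with array weights, and 3 to 10 with each array left out (3 without early HFD tumor 2). Over all genes the count of 3500 became 2134 with dimmed rows kept, 1572 and 84 with slide as a random and a fixed block, 1314 and 2222 within sessions 1 and 2, and 8314 with array weights.

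Within HFD the 6 calls became 3 with dimmed rows kept, 3 with normexp on all spots, 1 with median centring, 2 in the tumor channel alone, 2 with slide as a random block and 16 with array weights, and 2 to 7 with each array left out (2 without early HFD tumor 2). Within HFD-LFD the 0 calls became 1 with session as a fixed block, 5 within session 2, 1 without the slides with dimmed rows and 5 with array weights (0 to 1 with each array left out). The 0 calls for the difference of these changes became 1 in the tumor channel alone and 2 with array weights (0 to 1). For HFD against LFD, array weights called 2 members, C1qa and Serping1 (0 to 0 with each array left out). The 3 calls for diet among late tumors became 1 with dimmed rows kept, 1 with the scanner log ratio, 0 with normexp on all spots, 1 in the tumor channel alone, 0 with slide as a random or a fixed block or session as a fixed block, 1 without the slides with dimmed rows and 15 with array weights (2 to 4). Shares of all genes called under these settings are not given for these comparisons. The counts therefore do not set the members apart from other genes.

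Correlations moved for C1qa and C1qb (0.976 in session 1, 0.649 without 2 tumors), C1qa and C1qc (0.792 without 2 tumors), C3 and Cfb (0.452 in late tumors), Fga and Fgg (0.223 in late tumors, 0.82 in session 1, 0.402 without 2 tumors), Fgb and Fgg (0.848 in session 1), Orm1 and Orm2 (0.984 in session 1), Il6 and Socs3 (0.543 without 2 tumors) and Il1b and S100a9 (0.655 in session 1). Keeping spots with a flagged background, finding fewer dimmed rows and removing row bands were chosen after seeing the data. Slide as a fixed block could not be fitted within HFD or for the difference of the changes, since each slide there holds 1 onset. No paired analysis was possible because replicate numbers only name tumors within a group and mark no shared animal or batch. Low tumor signal limits A2m, Crp, C5ar1, Il6 and Apcs, which were not well above background on every measured array.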

Other observations

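Some tumors stood apart in cell markers and members at once, and these values are given with no explanation. Late HFD tumor 4 had the highest mean level of the squamous markers, 3.08 on the log2 ratio scale, and the lowest of the luminal markers, -1.52. In that tumor Saa3 was at 4.31 and Il6 at 1.58, while Lcn2 was at -0.49 and Cp at -1.87, the lowest values of these 2 genes in any tumor. Early HFD tumor 1 had the highest levels of the luminal and milk protein markers among early tumors, 2.42 and 4.85, and was also the early tumor with the lowest Saa3 (0.70) and the highest Lcn2 (2.41). Late HFD-LFD tumor 3 had the highest level of the neutrophil markers, 0.83, and the highest Il1b (4.78), Il6 (1.76), Socs3 (1.17) and Saa3 (4.77) of all tumors. Its squamous marker level, 0.70, was below only that of late HFD tumor 4. The neutrophil markers S100a8 and S100a9 were at 4.65 and 4.82 in it, and which cells gave these signals was not tested.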
